A study of Homo sapiens with 12 samples.

Results

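The cytosolic ribosomal protein genes encode the proteins of the small (40S) and large (60S) ribosomal subunits. They were taken from the count table as protein-coding genes whose symbol is RPL or RPS with a number and an optional letter or paralog suffix, RPLP0 to RPLP2, or RPSA. This gave 84 of the 58735 genes in the table: 49 of the large subunit, 32 of the small subunit and the 3 stalk proteins. Of the members, 82 passed the filter on low counts and were tested together with all 14920 genes that passed. The other members were RPL3L, a muscle-type copy of RPL3, with 1 to 10 counts per library, and RPL10L, a testis-type copy of RPL10, with 0 counts in all 12 libraries. A count of 0 allows up to 3 counts per library, a limit that covers counting error only.

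Most of these proteins occur once in each ribosome, so cells make them in balanced amounts, and a shortage of a single one can stall subunit assembly. In vertebrates their messenger RNAs begin with a terminal oligopyrimidine (TOP) tract, a C at the cap followed by a run of C and T, which lets the mTORC1 kinase and the RNA-binding protein LARP1 control their translation and stability as a group. Free RPL5 and RPL11, bound to the 5S ribosomal RNA, inhibit MDM2 and so raise p53 when assembly fails.

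Poly-A RNA was sequenced in bulk from immortalised human skin keratinocytes of the line N/TERT-2G, in 4 groups of 3 libraries: ATF3 siRNA, APOE siRNA, CXCL14 siRNA and a negative control siRNA. The series concerns vulvar lichen sclerosus; no tissue of that disease was analysed here. All groups, the control included, were transfected at partial confluency with 100 pmol of siRNA and 5 µl of Lipofectamine 2000 per well, and the Keratinocyte SFM medium was changed after 6 h. CXCL14 is an epithelial chemokine, APOE carries lipids in lipoproteins and ATF3 is a transcription factor induced by stress. The siRNA sequences and the time of harvest are not given in the labels, and nothing states that the 3 libraries of a group came from separate cultures, so p-values measure only the spread between these libraries, which may be technical. Per the labels' protocols the libraries were either strand-specific or not, which is left undecided there, so reads of a gene and of an antisense partner may not be told apart.

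Total counts ran from 16225691 to 22246755 per library. Each targeted gene was lower in its own group. ATF3 had 12.02, 12.5 and 11.5 CPM (counts per 1e+06 library counts, scaled by TMM) in ATF3 siRNA libraries, against 43.0, 43.0 and 40.5 CPM in control siRNA libraries. APOE had 0.106, 0.274 and 0.191 CPM in APOE siRNA libraries, against 2.78, 3.59 and 3.16 CPM in control siRNA libraries. CXCL14 had 1, 1 and 0 counts in CXCL14 siRNA libraries, against 7, 6 and 11 counts in control siRNA libraries, so its fall rests on few reads; its edgeR adjusted p of 0.0143 became 0.0523 without control replicate 3 and 0.0579 without CXCL14 siRNA replicate 3. All 7 keratinocyte markers (KRT5, KRT14, TP63, ITGA6, COL17A1, LAMA3, CDH1) were detected, and their summed level was 27600 to 29700 CPM with ATF3 siRNA, 34200 to 36600 CPM with APOE siRNA and 18200 to 18800 CPM with CXCL14 siRNA, against 26600 to 28800 CPM with control siRNA. Of the 7, CXCL14 siRNA libraries had 6 called lower and 0 called higher, APOE siRNA libraries 2 lower and 4 higher, and ATF3 siRNA libraries 3 lower and 1 higher. Fibroblast markers summed to 32.5 to 40.8, 74 to 87.7 and 14.6 to 17.7 CPM in ATF3, APOE and CXCL14 siRNA libraries, against 25.2 to 34.1 CPM in control siRNA libraries, nearly all of it COL1A1, and melanocyte and endothelial markers summed to at most 2.53 and 0.436 CPM. Of the 2 fibroblast markers tested, 1 was called lower (log2 fold change -0.92) and 1 higher (2.55) with CXCL14 siRNA. With APOE siRNA 2 were called higher, and with ATF3 siRNA 0 were called. The immune markers summed to 0 to 0.0605, 0.0528 to 0.128 and 0 to 0.0527 CPM with ATF3, APOE and CXCL14 siRNA, against 0.122 to 0.372 CPM with control siRNA; all of it was CD68, with at most 6 counts in a library, and PTPRC and CD3E had 0 counts in every library. The part of these marker shifts in the ribosomal protein results was not tested. In bulk RNA, fewer cells of a type and less RNA per cell cannot be told apart.

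RefSeq (GRCh38.p14) gave a promoter for 67 of the 84 genes, as 250 bases before and 50 bases from the annotated start, and the TOP tract can be read at the start itself. Only the first listed promoter of each gene was read, for members and for all genes alike, so other starts of a gene are not covered. The annotated start was a C in 70.1% of the 67 promoters, against 15% of all 27305 promoters in the table. A C at the start followed by 4 or more C or T was present in 64.2% of them, against 4.04% of all promoters, and a run of 8 or more C or T within 10 bases of the start in 77.6%, against 15.4%. The sequences below span 15 bases on each side of the start, with the first transcribed base at position 16, and capitals mark the longest run of C or T near the start. Not every gene called higher with every siRNA has a run of 8 or more: the longest near the start has 5 bases in RPL32 and 6 in RPL11 and RPL12. The first 4 are examples of genes that were called higher with every siRNA, and these 4 show the tract:
RPL35 (chr9:124861943-124861972, minus strand): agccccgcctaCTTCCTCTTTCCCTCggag
RPS18 (chr6:33272060-33272089, plus strand): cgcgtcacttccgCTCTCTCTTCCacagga
RPL13A (chr19:49487593-49487622, plus strand): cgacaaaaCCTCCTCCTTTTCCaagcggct
RPS19 (chr19:41860240-41860269, plus strand): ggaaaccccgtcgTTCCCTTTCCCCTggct
The next 4 are genes that departed from the rest with at least 1 siRNA, and they carry a run of similar length near the start. In RPS7 most of the run lies before the start, with 3 bases of C or T from the start on, against 7 in RPL27A and 6 in RPL14 and RPS13:
RPS7 (chr2:3575245-3575274, plus strand): gtttccgCCCTCCTCCTCgcgctgtttccg
RPL27A (chr11:8682777-8682806, plus strand): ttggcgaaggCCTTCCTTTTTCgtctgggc
RPL14 (chr3:40457324-40457353, plus strand): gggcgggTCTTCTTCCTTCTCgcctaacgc
RPS13 (chr11:17077653-17077682, minus strand): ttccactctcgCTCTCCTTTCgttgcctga
The last 4 are paralog copies, of which RPL22L1 has a run of 10 and the others have no run longer than 6:
RPL22L1 (chr3:170870181-170870210, minus strand): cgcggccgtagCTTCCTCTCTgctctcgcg
RPL26L1 (chr5:172958714-172958743, plus strand): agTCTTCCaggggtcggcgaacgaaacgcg
RPL7L1 (chr6:42879601-42879630, plus strand): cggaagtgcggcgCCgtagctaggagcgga
RPS27L (chr15:63157463-63157492, minus strand): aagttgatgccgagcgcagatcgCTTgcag

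Other motifs were searched on both strands of the same 300 bases. The ETS motif CTTCCGG was present in 34.3% of the 67 promoters, against 10.7% of all promoters, and the YY1 motif AAGATGGCG in 8.96%, against 1.85%. The cyclic AMP response element TGACGTCA, a type of site that ATF3 can bind, was present in 3 promoters (RPL3, RPLP2 and RPL18; 4.48%, against 1.98% of all), and the AP-1 motif TGACTCA in 1 (RPL24; 1.49%, against 4.92%). The E-box CACGTG was present in 5.97%, against 7.43%, and TATAAA in 10.4%, against 12%. A match describes the letters and is not evidence of binding. Among tested members with a promoter, the 52 with a run of 8 or more C or T and the 14 without had median log2 fold changes over control siRNA of 0.26 and 0.27 for ATF3 siRNA, 0.39 and 0.43 for APOE siRNA and 0.36 and 0.35 for CXCL14 siRNA. The classes rest on the first listed start of each gene, so they need not separate messenger RNAs with and without a TOP tract. RPL11, RPL13 and RPL32, for example, fell in the class without, with longest runs of 6, 4 and 5.

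Ribosomal protein messenger RNAs were among the most abundant in these cells. Levels between genes are given as deposited FPKM (fragments per kilobase of exon and per library size), which divide by gene length. In control siRNA libraries the 82 tested members ran from 0.546 to 842 FPKM with a median of 142 FPKM, and 37 of them were among the 200 highest of all genes. RPS2, a small-subunit protein near the messenger RNA entry, was highest at 842 ± 15.4 FPKM (mean ± SD, n = 3). RPS12, of the beak of the small subunit, had 782 ± 23.2 FPKM and RPL8, next to the catalytic centre of the large subunit, 707 ± 30.7 FPKM. RPL13A had 629 ± 10.01 FPKM and RPL41, the smallest of these proteins, 496 ± 4.99 FPKM. Each of these 5 stood apart from the next by more than the SD of either, in this order. The SD does not cover the gene length used, on which the order depends. RPLP0 ranked 10 by FPKM with a listed length of 4001 bases, and RPS12 ranked 2 with 767 bases. Their mean CPM in control siRNA libraries were 1463 and 608.

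At the low end, RPS10 had 0.546 ± 0.0801 FPKM and RPL36A 0.842 ± 0.148 FPKM in control siRNA libraries. RPS27L had 3.57 ± 0.178 and RPS15A 7.04 ± 0.245 FPKM there, and these 4 genes stood apart from each other by more than the SD of any. RPS10 had only 12 to 44 counts per library, and 39.4% of its exon bases lie in the read-through gene RPS10-NUDT3 on the same strand, which had 0 to 3 counts. RPL36A shares 8.4% of its exon bases with RPL36A-HNRNPH2, which had 0 or 1 count. Reads in shared bases may have been assigned to neither gene, which was not tested, and levels of these genes are uncertain. The exon length behind the deposited FPKM is the union of all annotated exons; for RPS29 it is 9845 bases, while its median coding transcript has 582.5 bases, so a gene's FPKM depends on that choice of length.

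**Figure D1:**
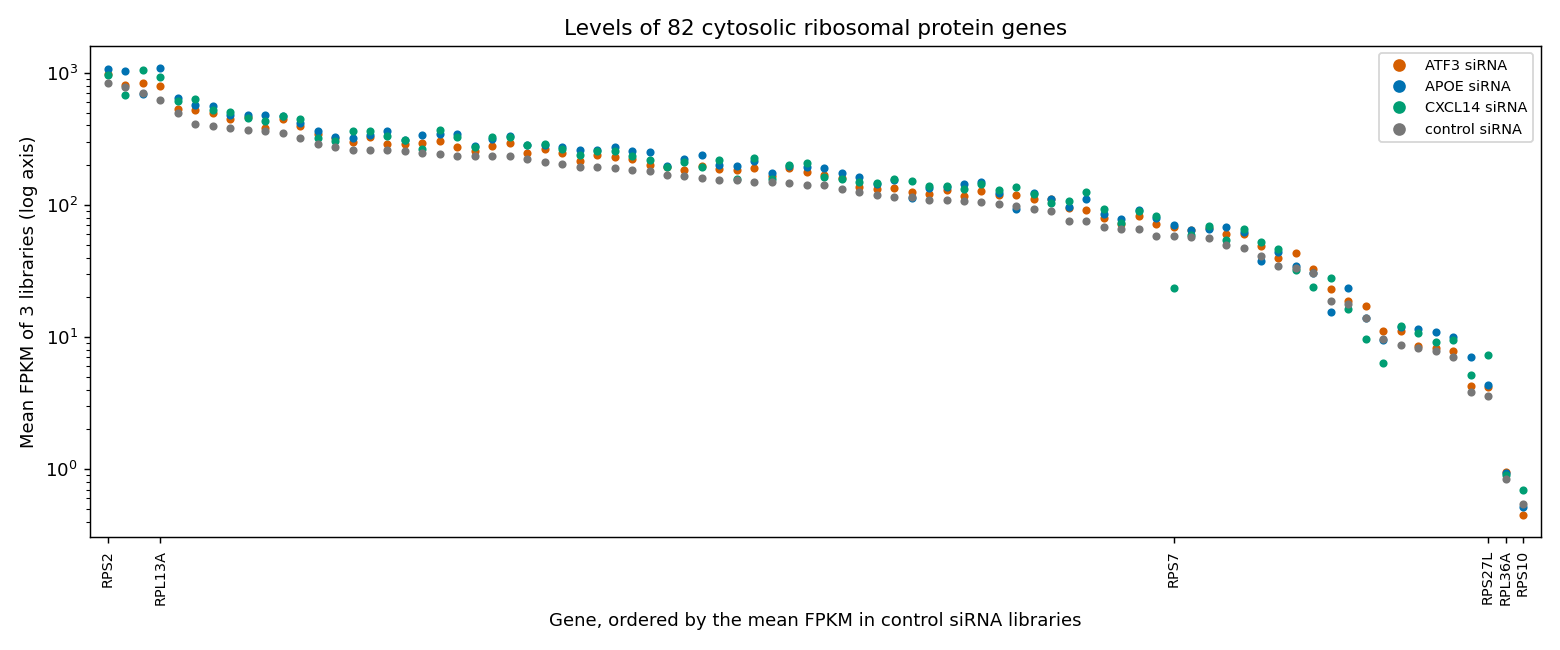
Mean FPKM (log axis) of the 82 tested cytosolic ribosomal protein genes in ATF3, APOE, CXCL14 and control siRNA libraries (3 each), ordered by the control siRNA mean, with 6 genes named. Most genes lie above their control siRNA point with every siRNA; the CXCL14 siRNA point of RPS7, at 23.4 FPKM, lies far below its control siRNA point of 57.9 FPKM.

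The cytosolic ribosomal protein genes took a larger share of all counts in every library that received a targeting siRNA than in any control siRNA library. The share was 5.08, 4.93 and 4.53% in ATF3 siRNA libraries, 5.31, 5.27 and 5.34% in APOE siRNA libraries and 5.64, 5.39 and 5.75% in CXCL14 siRNA libraries, against 4.18, 4.26 and 4.17% in control siRNA libraries. The means were 4.85 ± 0.285, 5.31 ± 0.037, 5.59 ± 0.187 and 4.20 ± 0.0479% (SD, n = 3 each, ATF3, APOE, CXCL14 and control siRNA). The groups did not overlap with the control, and ATF3 siRNA replicate 3 was the lowest of the 9 libraries with a targeting siRNA. A 95% exact binomial interval spanned 4.17 to 4.19% in control replicate 1, so counting error was small beside the spread between libraries. The interval does not cover other error.

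**Figure D2:**
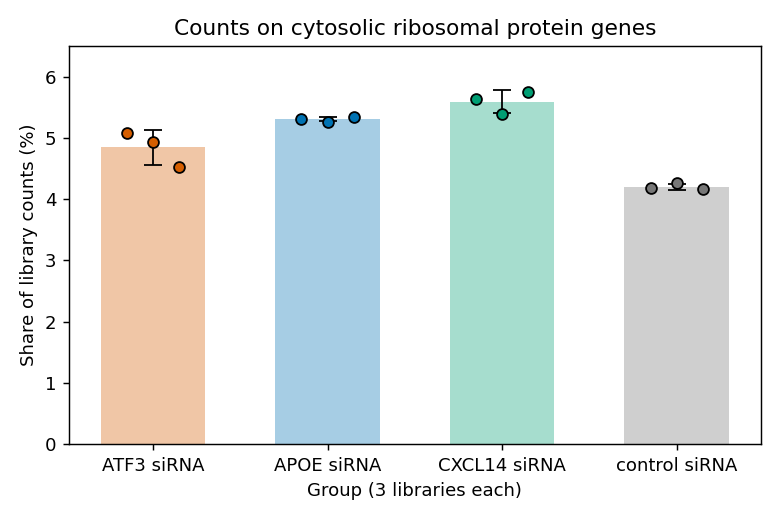
Share of each library's counts on the 84 cytosolic ribosomal protein genes (%), by group. Points are libraries, bars the means of 3 and error bars the SD; all 9 libraries with a targeting siRNA lie at 4.53% or above, and the 3 control siRNA libraries at 4.26% or below.

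The genes were compared between groups with edgeR's quasi-likelihood test, adjusted by the Benjamini-Hochberg method over all 14920 genes, and a gene was called at an adjusted p under 0.05. The same 3 control siRNA libraries serve all comparisons with the control, so these are not independent of each other. Most members were higher with each siRNA and the changes were small: with ATF3 or APOE siRNA no called member changed 2-fold, and with CXCL14 siRNA 2 did. With all 3 siRNAs, 42 members were called higher, and 18 more with APOE and CXCL14 siRNA but not with ATF3 siRNA. Such joint counts were made for the members only, so how common these patterns are among all genes is not known. Of all tested genes, 11.2%, 22.3% and 27.4% were called higher with ATF3, APOE and CXCL14 siRNA, each taken singly. Only 3 members, RPL36A, RPL9 and RPS10, were called with none of the siRNAs. The first and last are the members with fewest counts among those tested. Pseudogenes of RPL9 held 32.9% of the counts on RPL9 and its pseudogenes together, and those of RPS10 held 65.6% in the same way. For RPS28, which was called higher with all 3 siRNAs, the share was 35.4%. Whether these shares bear on the calls was not tested.

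**Figure D3:**
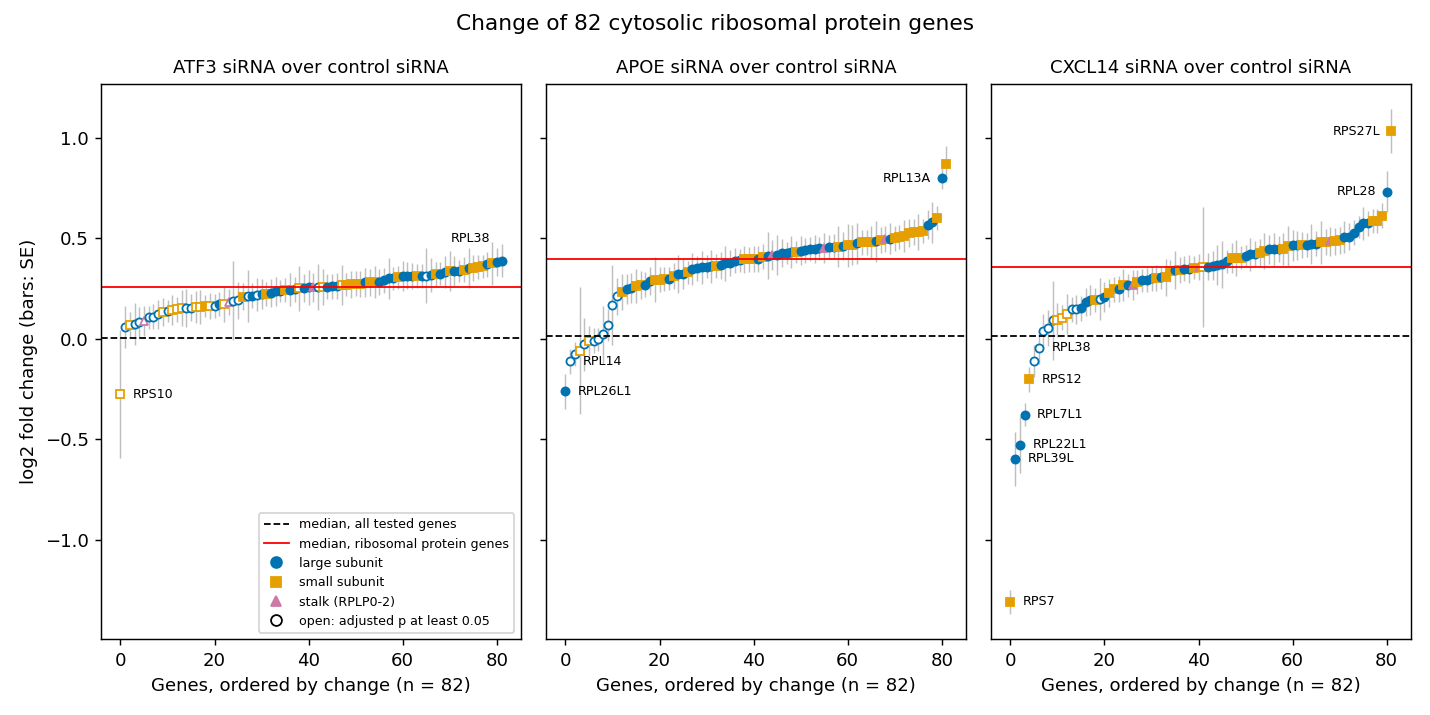
Log2 fold change over control siRNA of the 82 tested cytosolic ribosomal protein genes with ATF3, APOE and CXCL14 siRNA, ordered by size, with SE as bars; filled symbols passed an edgeR adjusted p of 0.05. The members' median (red; 0.26, 0.40 and 0.36) lies above the median of all tested genes (dashed; 0.0032, 0.012 and 0.013), and RPS7 with CXCL14 siRNA lies far below.

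With ATF3 siRNA, 51 of 82 tested members were called higher, 0 lower and 31 not called; 0 members were lower at an unadjusted edgeR p under 0.05, by DESeq2 or by limma-voom. Among all tested genes, 11.2% were called higher and 9.14% lower. The members' median log2 fold change was 0.26, against 0.0032 over all tested genes. By subunit, 31 of 47 large-subunit genes, 19 of 32 small-subunit genes and 1 of 3 stalk genes were called higher. ATF3 siRNA replicate 3 had 65 members above the control siRNA mean, against 81 in each of the other ATF3 siRNA replicates. How many of all genes lay above that mean in each library was not counted. Without ATF3 siRNA replicate 3, 63 members were called higher, and without other single libraries as few as 35. Of all genes, 1397 of 15274 were higher without that replicate, and 1057 to 1523 without other single libraries.

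The largest rise with ATF3 siRNA was that of RPL38, a large-subunit protein known in mice for its role in translating Hox messenger RNAs. It had 186, 164 and 157 CPM in ATF3 siRNA libraries, against 123, 127 and 137 CPM in control siRNA libraries, a log2 fold change of 0.39 ± 0.082 (SE; edgeR adjusted p = 0.00324). All ATF3 siRNA libraries were above all control siRNA libraries, and RPL38 was not called with APOE siRNA (128, 137 and 142 CPM, 0.069 ± 0.082) or CXCL14 siRNA (135, 112 and 129 CPM, -0.043 ± 0.082). Compared directly, RPL38 was 0.32 ± 0.081 higher with ATF3 siRNA than with APOE siRNA (edgeR adjusted p = 0.00505) and 0.43 ± 0.081 higher than with CXCL14 siRNA (edgeR adjusted p = 0.000289). RPL11 had a log2 fold change of 0.38 ± 0.070, RPS29 of 0.38 ± 0.11 and RPL35 of 0.37 ± 0.063 with ATF3 siRNA. The call of RPS29 was lost without control replicate 1 (edgeR adjusted p = 0.104) or ATF3 siRNA replicate 1 (0.0993).

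With APOE siRNA, 70 of 82 tested members were called higher, 1 lower and 11 not called, where 22.3% of all tested genes were called higher and 22.5% lower. The members' median log2 fold change was 0.40, against 0.012 over all tested genes. Of the small-subunit genes, 30 of 32 were called higher, of the large-subunit genes 37 of 47, and of the stalk genes 3 of 3.

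RPL13A, a large-subunit protein that also silences inflammatory messenger RNAs when released, had the smallest adjusted p with APOE siRNA. It had 2605, 2612 and 2669 CPM with APOE siRNA, against 1478, 1525 and 1524 CPM with control siRNA (log2 fold change 0.80 ± 0.055, edgeR adjusted p = 1.17e-08). In ATF3 siRNA libraries RPL13A had 1977, 1895 and 1854 CPM and in CXCL14 siRNA libraries 2162, 2180.2 and 2325 CPM, and both rises were called (0.34 ± 0.055 and 0.56 ± 0.055). The groups were ordered without overlap as APOE, CXCL14, ATF3 and control siRNA, from high to low, and the direct differences were also called: APOE over CXCL14 siRNA 0.24 ± 0.055 and ATF3 over CXCL14 siRNA -0.22 ± 0.055 (edgeR adjusted p = 0.00128 and 0.00293). With APOE siRNA RPS9, of the small-subunit body, rose by 0.60 ± 0.060 and RPL28, of the large subunit, by 0.58 ± 0.10.

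With CXCL14 siRNA, 65 of 82 tested members were called higher, 5 lower and 12 not called, where 27.4% of all tested genes were called higher and 28.4% lower. The members' median log2 fold change was 0.36, against 0.013 over all tested genes. Large-subunit genes were called higher in 36 and lower in 3 of 47 cases, small-subunit genes higher in 26 and lower in 2 of 32, and stalk genes higher in 3 of 3. The members' changes spread more widely than with ATF3 siRNA, from -1.31 to 1.03, where those with ATF3 siRNA ran from -0.28 to 0.39.

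The widest departure was RPS7, a small-subunit protein needed to process the 18S ribosomal RNA. RPS7 lies at chr2:3575205-3580920 on the plus strand (hg38, coordinates of the deposited table). It had 129, 128 and 139 CPM in CXCL14 siRNA libraries, against 336, 325 and 322 CPM in control siRNA libraries. The CXCL14 siRNA values were all below 0.5 times any control siRNA value, and the log2 fold change was -1.31 ± 0.060 (edgeR adjusted p = 5.65e-11), between -1.35 and -1.25 in 17 alternative settings. RPS7 rose with ATF3 siRNA (407, 390.0 and 366 CPM; 0.24 ± 0.059, edgeR adjusted p = 0.00817) and with APOE siRNA (401, 394 and 413 CPM; 0.30 ± 0.059, edgeR adjusted p = 0.000623). Compared directly, it was 1.55 ± 0.060 higher with ATF3 siRNA and 1.61 ± 0.060 higher with APOE siRNA than with CXCL14 siRNA (edgeR adjusted p = 1.25e-11 and 5.39e-12). The 15 annotated RPS7 pseudogenes, whose sequences are close to RPS7, together had 330, 321 and 476 counts in CXCL14 siRNA libraries, against 993, 891 and 857 counts in control siRNA libraries, a ratio of 0.337 after scaling beside 0.403 for RPS7. Reads of a pseudogene and its parent may not be told apart.

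RPL28 and RPS27L had the largest rises with CXCL14 siRNA. RPL28 had 833, 843 and 959.8 CPM in CXCL14 siRNA libraries, against 462, 506 and 618 CPM in control siRNA libraries (log2 fold change 0.73 ± 0.10, edgeR adjusted p = 1.33e-05). The CXCL14 siRNA libraries were all above the control siRNA libraries. RPS18, of the small-subunit head, rose by 0.61 ± 0.061 and RPS19, the protein most often mutated in Diamond-Blackfan anaemia, by 0.59 ± 0.061. RPS19 had 1398, 1355 and 1497 CPM with CXCL14 siRNA, against 882, 969.8 and 975 CPM with control siRNA.

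RPL8, RPL27A, RPL14 and RPS13 rose with CXCL14 siRNA and were not called with APOE siRNA; they were chosen after their values were seen. RPL8 had 1476, 1521 and 1613 CPM in APOE siRNA libraries, against 1465, 1571 and 1602 CPM in control siRNA libraries, so the groups overlapped (log2 fold change -0.0084 ± 0.062). With ATF3 siRNA it had 1927, 1796 and 1829 CPM and with CXCL14 siRNA 2202, 2275 and 2431 CPM, above every control siRNA library. RPL27A, a protein of the large-subunit core, had 694, 684 and 667 CPM in APOE siRNA libraries, against 711, 736 and 707 CPM in control siRNA libraries (-0.074 ± 0.060). The APOE siRNA libraries were all below the control siRNA libraries, by less than the test calls.

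RPL27A had 944, 872 and 818 CPM with ATF3 siRNA and 1004, 963 and 1013 CPM with CXCL14 siRNA, and both rises were called (0.29 ± 0.060 and 0.47 ± 0.060). RPL14, a large-subunit surface protein, had 328, 332 and 331 CPM in APOE siRNA libraries, against 347, 368 and 356 CPM in control siRNA libraries, with no overlap. Its change of -0.11 ± 0.062 was not called (edgeR adjusted p = 0.16), and it was called with library sizes alone (0.0377). With ATF3 and CXCL14 siRNA RPL14 rose by 0.26 ± 0.062 and 0.35 ± 0.062. RPS13, of the small-subunit platform, had 255, 245 and 253 CPM with APOE siRNA, against 257, 252 and 250.3 CPM with control siRNA, and rose with CXCL14 siRNA to 355, 307 and 341 CPM (0.40 ± 0.076).

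The difference between siRNAs was called for these genes. APOE over CXCL14 siRNA gave -0.58 ± 0.062 for RPL8, -0.54 ± 0.060 for RPL27A, -0.46 ± 0.062 for RPL14 and -0.41 ± 0.076 for RPS13 (edgeR adjusted p from 7.1e-07 to 0.00021). RPS12 moved in opposite directions: it rose with APOE siRNA (791, 781 and 849.5 CPM; 0.41 ± 0.062) and fell with CXCL14 siRNA (528, 504 and 554 CPM; -0.20 ± 0.062), against 619, 614 and 590.0 CPM with control siRNA. Its fall was not called without CXCL14 siRNA replicate 2 or with library sizes alone (largest edgeR adjusted p 0.0598), while APOE over CXCL14 siRNA, at 0.61 ± 0.062, was called at an edgeR adjusted p of 3.72e-07.

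**Figure D4:**
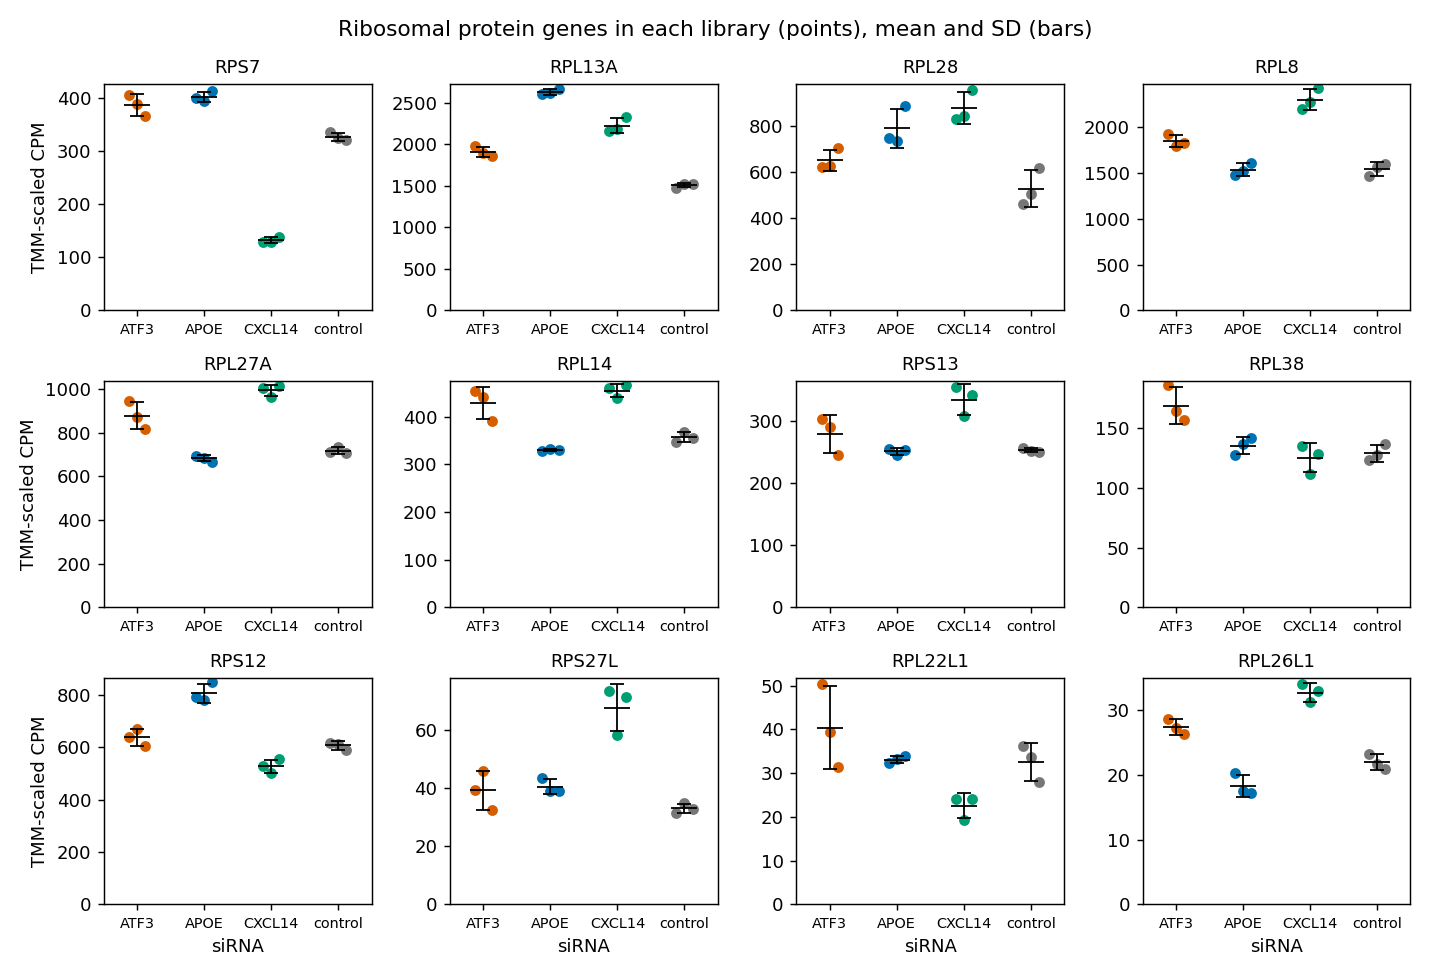
TMM-scaled CPM of 12 cytosolic ribosomal protein genes in each library (points), with mean and SD (bars), for ATF3, APOE, CXCL14 and control siRNA. RPS7 is at 128 to 139 CPM with CXCL14 siRNA and at 322 CPM or more elsewhere; RPL8, RPL27A, RPL14 and RPS13 were not called with APOE siRNA, and RPS27L is highest with CXCL14 siRNA.

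Of the 7 genes named as paralog copies, 5 were tested, and their counts are given apart from those of the other members, with no test of the difference. With CXCL14 siRNA 2 copies were called higher and 3 lower, with a median of -0.38, while the other 77 members had 63 higher and 2 lower, with a median of 0.36. With APOE siRNA 1 copy was called higher and 1 lower (median -0.0019), against 69 and 0 of the other members (median 0.41). With ATF3 siRNA 1 copy and 50 of the other members were called higher and none lower (medians 0.25 and 0.26). The copies' shares higher and lower were 40% and 60% with CXCL14, 20% and 20% with APOE and 20% and 0% with ATF3 siRNA. Over all tested genes these shares were 27.4% and 28.4%, 22.3% and 22.5%, and 11.2% and 9.14%. Shares of only 5 genes are coarse.

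RPS27L, a p53-inducible copy of RPS27, had 73.1, 58.3 and 71.2 CPM in CXCL14 siRNA libraries, against 31.4, 34.7 and 32.9 CPM in control siRNA libraries (log2 fold change 1.03 ± 0.11, edgeR adjusted p = 7.7e-07). It was also higher in CXCL14 siRNA libraries than in those of the other siRNAs: ATF3 over CXCL14 siRNA was -0.78 ± 0.11 and APOE over CXCL14 siRNA -0.74 ± 0.11. Its parent RPS27 rose with CXCL14 siRNA by 0.46 ± 0.10, to 341, 273 and 299 CPM, against 212, 227 and 223 CPM with control siRNA. With APOE siRNA RPS27L rose by 0.29 ± 0.11 (edgeR adjusted p = 0.0441), a call that did not hold with any single library left out (up to 0.146).

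RPL22L1, a copy whose level RPL22 is known to repress in mice, had 24.2, 19.4 and 24.2 CPM in CXCL14 siRNA libraries, against 36.3, 33.6 and 27.9 CPM in control siRNA libraries (log2 fold change -0.53 ± 0.14, edgeR adjusted p = 0.005). Its parent RPL22 was not called there (84.1, 69.3 and 80.0 CPM, against 87.5, 85.9 and 78.5 CPM with control siRNA; -0.11 ± 0.079). RPL22 rose with APOE siRNA to 111, 110.0 and 118 CPM (0.43 ± 0.079, edgeR adjusted p = 0.000331), where RPL22L1 had 32.2, 33.2 and 33.9 CPM. RPL22L1 was spread widely in ATF3 siRNA libraries, at 50.3, 39.5 and 31.4 CPM, and was not called there; without ATF3 siRNA replicate 3 its rise of 0.46 passed at an edgeR adjusted p of 0.0173.

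RPL39L, a copy enriched in testis, had 6.80, 6.32 and 7.51 CPM in CXCL14 siRNA libraries, against 9.61, 10.3 and 11.3 CPM in control siRNA libraries (log2 fold change -0.60 ± 0.13, edgeR adjusted p = 0.00127). Its parent RPL39, at the peptide exit tunnel, rose there by 0.37 ± 0.12 (edgeR adjusted p = 0.0127), which did not hold without control replicate 3 (0.056) or CXCL14 siRNA replicate 1 (0.0729). RPL7L1, which works in ribosome assembly rather than in the mature subunit, had 189, 182 and 190.4 CPM with CXCL14 siRNA, against 256, 235 and 240.4 CPM with control siRNA (-0.38 ± 0.058, edgeR adjusted p = 3.53e-05). RPL7 had 476, 435 and 486 CPM there, against 491, 456 and 412 CPM with control siRNA, and was not called (0.039 ± 0.087); it was called with APOE siRNA (0.38 ± 0.087) and narrowly with ATF3 siRNA (0.26 ± 0.087, edgeR adjusted p = 0.0469; lost without control replicate 2 or 3 or ATF3 siRNA replicate 1 or 2, at up to 0.198).

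RPL26L1 rose with ATF3 and CXCL14 siRNA and fell with APOE siRNA. It had 28.6, 27.3 and 26.3 CPM with ATF3 siRNA, 20.3, 17.5 and 17.2 CPM with APOE siRNA and 34.0, 31.2 and 33.0 CPM with CXCL14 siRNA, against 23.3, 21.8 and 20.9 CPM with control siRNA. The log2 fold changes were 0.32 ± 0.084, -0.26 ± 0.087 and 0.57 ± 0.083 (edgeR adjusted p = 0.0139, 0.0219 and 2.13e-05). The call with ATF3 siRNA was lost without control replicate 2 or 3 or ATF3 siRNA replicate 1 (edgeR adjusted p 0.0519, 0.0655 and 0.0557), and that with APOE siRNA without control replicate 1 or APOE siRNA replicate 2 or 3 (0.0899, 0.0825 and 0.0885). The direct differences were larger: ATF3 over APOE siRNA was 0.58 ± 0.085 and APOE over CXCL14 siRNA -0.84 ± 0.084 (edgeR adjusted p = 4.84e-05 and 3.56e-07). RPL26, which can bind the p53 messenger RNA, had 22.2, 24.1 and 19.5 CPM with ATF3 siRNA, 29.8, 28.7 and 29.7 CPM with APOE siRNA and 28.4, 26.0 and 27.4 CPM with CXCL14 siRNA, against 24.7, 19.0 and 19.6 CPM with control siRNA. RPL26 had an edgeR log2 fold change of 0.48 ± 0.10 with APOE siRNA, where its copy fell. Of the exon bases of RPL26, 14.3% lie in another gene on the same strand. Pseudogenes of RPL26 held 24.9% of the counts on RPL26 and its pseudogenes together. Its level is uncertain for these reasons, and their part in the contrast with RPL26L1 was not tested.

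The stalk proteins RPLP0, RPLP1 and RPLP2 recruit the elongation factors to the ribosome. RPLP0 had 1699, 1489.8 and 1481 CPM with ATF3 siRNA, 1845, 1946 and 2074 CPM with APOE siRNA and 1662, 1763 and 1861 CPM with CXCL14 siRNA, against 1586, 1416 and 1387 CPM with control siRNA. It rose with APOE and CXCL14 siRNA by 0.42 ± 0.075 and 0.27 ± 0.075; with ATF3 siRNA the libraries overlapped the control (0.089 ± 0.075). RPLP1 rose by 0.50 ± 0.064 with APOE siRNA and by 0.36 ± 0.064 with CXCL14 siRNA, and had 0.18 ± 0.064 with ATF3 siRNA (edgeR adjusted p = 0.0546), which was called with a replicate block (0.0213), the stricter filter on low counts (0.0497), DESeq2 (0.0408) and limma-voom (0.0427). RPLP2 rose with all 3 siRNAs, by 0.26 ± 0.073, 0.45 ± 0.073 and 0.49 ± 0.073 for ATF3, APOE and CXCL14 siRNA; the ATF3 siRNA call was lost without control replicate 1 or 2 (edgeR adjusted p 0.103 and 0.0704). RPLP0 is widely used to normalise quantitative PCR.

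Of the proteins that signal to p53, RPL5 had 686, 663 and 563 CPM with ATF3 siRNA, 729, 703 and 726 CPM with APOE siRNA and 621, 581 and 619 CPM with CXCL14 siRNA, against 561, 525 and 520.2 CPM with control siRNA. Its log2 fold changes were 0.25 ± 0.071, 0.43 ± 0.071 and 0.18 ± 0.071 (edgeR adjusted p = 0.0194, 0.00013 and 0.0379). The ATF3 siRNA call was lost without control replicate 2 or 3 or ATF3 siRNA replicate 1 or 2 (up to 0.0864), and the CXCL14 siRNA call without control replicate 2 or 3 or CXCL14 siRNA replicate 1 or 3 (up to 0.12). RPL11 rose with all 3 siRNAs, to 571, 505 and 477 CPM with ATF3 siRNA, 537, 538 and 549 CPM with APOE siRNA and 566, 497 and 558 CPM with CXCL14 siRNA, against 402, 397 and 391 CPM with control siRNA. No control siRNA library reached the level of any other library for RPL11 (edgeR adjusted p = 0.00114, 7.35e-05 and 4.91e-05).

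RPS6, the small-subunit protein phosphorylated by the S6 kinases, had 773, 702 and 653 CPM with ATF3 siRNA, 771, 765 and 799.6 CPM with APOE siRNA and 719, 740.3 and 813 CPM with CXCL14 siRNA, against 676, 630.0 and 631 CPM with control siRNA. RPS6 rose with APOE siRNA (0.27 ± 0.070) and CXCL14 siRNA (0.23 ± 0.069, lost without CXCL14 siRNA replicate 3 at an edgeR adjusted p of 0.0619), and had 0.14 ± 0.069 with ATF3 siRNA. RPSA, also known as a laminin receptor, rose by 0.21 ± 0.065, 0.31 ± 0.065 and 0.47 ± 0.065 with ATF3, APOE and CXCL14 siRNA, the ATF3 siRNA call being lost without control replicate 2 or 3 or ATF3 siRNA replicate 1 (edgeR adjusted p 0.133, 0.0943 and 0.101). RPL10, which completes the large subunit late in assembly, rose by 0.45 ± 0.060 with APOE and 0.29 ± 0.060 with CXCL14 siRNA, and had 0.17 ± 0.060 with ATF3 siRNA (edgeR adjusted p = 0.0615), which was called with a replicate block (0.034), DESeq2 (0.0435) and limma-voom (0.0465) and without ATF3 siRNA replicate 3 (0.0477). RPS27A, made as a fusion with ubiquitin, rose with APOE siRNA (0.26 ± 0.085, edgeR adjusted p = 0.0186), a call lost without control replicate 3 or APOE siRNA replicate 1 or 3 (0.122, 0.051 and 0.0726). It was not called with the other siRNAs; without ATF3 siRNA replicate 3 its rise of 0.26 with ATF3 siRNA passed (0.0273).

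Among the genes called higher with all siRNAs at the smallest adjusted p were RPL13A, RPL35 and RPS18. RPL35 had 739.9, 716 and 652 CPM with ATF3 siRNA, 767, 741 and 732 CPM with APOE siRNA and 723, 712 and 751 CPM with CXCL14 siRNA, against 514, 574 and 542 CPM with control siRNA. No control siRNA library overlapped the other groups for RPL35.

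The siRNA groups were also compared with each other, without the control libraries entering the difference. ATF3 over APOE siRNA gave 5 members called higher and 30 lower of 82, with a median of -0.14; of all tested genes 20.3% were higher and 17.9% lower. The 5 were RPL26L1, RPL14, RPL27A, RPL38 and RPL8, and those lower included RPL13A (-0.46 ± 0.055). ATF3 over CXCL14 siRNA gave 8 higher and 29 lower, with a median of -0.13, where 28.4% of all tested genes were higher and 25.3% lower. With library sizes alone this became 6 higher and 52 lower, with the median of all genes moved by -0.10. Of all 14920 genes, 3477 were then higher and 4897 lower. Without ATF3 siRNA replicate 3 or CXCL14 siRNA replicate 3 the number of members lower was 15 and 13. Over all genes it was 3624 of 15274 and 3367 of 15196 in these settings. RPS7 and RPL22L1 (0.84 ± 0.14) were the largest called higher and RPS27L and RPL28 (-0.43 ± 0.10) the largest called lower. APOE over CXCL14 siRNA gave 18 higher and 6 lower with a median of 0.066, where 28.9% and 26.6% of all tested genes were higher and lower. This balance depends on scaling: with library sizes alone 10 were higher and 23 lower and the members' median was -0.058, the median of all genes having moved by -0.12. Of all 14920 genes, 3379 were higher and 5148 lower with that scaling. With a replicate block 23 members were higher and 9 lower, where 4649 of all 14920 genes were higher and 4300 lower. The 6 called lower were RPL26L1, RPS27L, RPL8, RPL27A, RPL14 and RPS13.

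Other genes of the ribosome and of its control were counted in the same way. Of the proteins of the cytosolic ribosome outside the naming rule, FAU (a ubiquitin-like protein fused to RPS30) and RACK1 were called higher with every siRNA, and RPL36AL with none. Of 77 mitochondrial ribosomal protein genes, 19 were higher and 0 lower with ATF3 siRNA (median 0.16), 31 and 9 for APOE siRNA (0.18), and 30 and 7 for CXCL14 siRNA (0.13). That was 24.7% and 0%, 40.3% and 11.7%, and 39% and 9.09% of the list. Over all tested genes the shares higher and lower were 11.2% and 9.14% for ATF3, 22.3% and 22.5% for APOE and 27.4% and 28.4% for CXCL14 siRNA.

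Among 17 tested translation factors and other genes with TOP messages, 5 were higher and 1 lower with ATF3 siRNA (median 0.11), 12 and 1 for APOE siRNA (0.39) and 9 and 4 for CXCL14 siRNA (0.23). As shares these were 29.4% and 5.88%, 70.6% and 5.88%, and 52.9% and 23.5%, against 11.2% and 9.14%, 22.3% and 22.5%, and 27.4% and 28.4% of all tested genes. EIF3F, a subunit of initiation factor 3, had 176, 169.8 and 180.2 CPM with ATF3 siRNA, 205, 212 and 231 CPM with APOE siRNA and 191, 199.7 and 209 CPM with CXCL14 siRNA, against 131, 132 and 142 CPM with control siRNA. HNRNPA1, an RNA-binding protein, rose with APOE siRNA by 0.59 ± 0.071 and fell with CXCL14 siRNA (-0.25 ± 0.071). EIF2S3, the gamma subunit of initiation factor 2, had the largest fall of the list, -1.75 ± 0.072 with CXCL14 siRNA, and NAP1L1, a histone chaperone, -0.99 ± 0.092 (edgeR adjusted p = 1.96e-11 and 1.4e-07).

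Of 44 genes of ribosome assembly and RNA polymerase I, 11 were higher and 2 lower with ATF3 siRNA (median 0.096), 13 and 7 for APOE siRNA (0.11), and 10 and 19 for CXCL14 siRNA (-0.077). With APOE siRNA 29.5% were higher and 15.9% lower, against 22.3% and 22.5% of all tested genes, and with CXCL14 siRNA 22.7% and 43.2%, against 27.4% and 28.4%. With ATF3 siRNA the shares were 25% and 4.55%, against 11.2% and 9.14%. EFL1, the GTPase that helps SBDS release EIF6 from new large subunits, fell with all 3 siRNAs, with log2 fold changes of -0.48 ± 0.066, -1.53 ± 0.069 and -1.12 ± 0.067 for ATF3, APOE and CXCL14 siRNA. GNL2, a GTPase of large-subunit assembly, fell with APOE siRNA (-1.18 ± 0.075) and TWISTNB, a subunit of RNA polymerase I, with CXCL14 siRNA (-1.69 ± 0.096). DDX21, a nucleolar helicase, rose with ATF3 siRNA by 0.38 ± 0.061.

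Of 28 tested genes of the mTORC1 and LARP1 pathway, 6 were higher and 2 lower with ATF3 siRNA (median 0.01), 10 and 4 for APOE siRNA (0.11), and 11 and 6 for CXCL14 siRNA (0.092). These were 21.4% and 7.14% of the list with ATF3 siRNA, beside 11.2% and 9.14% of all tested genes, 35.7% and 14.3% with APOE siRNA, beside 22.3% and 22.5%, and 39.3% and 21.4% with CXCL14 siRNA, beside 27.4% and 28.4%. LARP1, which binds the TOP tract, rose by 0.52 ± 0.064, 0.26 ± 0.064 and 0.54 ± 0.064 with ATF3, APOE and CXCL14 siRNA. EIF4EBP1, a translation repressor that mTORC1 inactivates, rose with ATF3 siRNA by 0.54 ± 0.075. With APOE siRNA its relative EIF4EBP2 had -1.37 ± 0.065, and SESN2, a leucine sensor that inhibits mTORC1, 1.30 ± 0.079 (edgeR adjusted p = 2.33e-10 and 3.05e-09). With CXCL14 siRNA FLCN, an activator of RagC, rose by 1.12 ± 0.074 and LARP4, which protects poly(A) tails, changed by -0.94 ± 0.090. Messenger RNA levels do not measure the activity of this pathway.

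Of 20 genes of ribosomal protein ubiquitylation and ribosome quality control, 3 were higher and 1 lower with ATF3 siRNA, 4 and 5 for APOE siRNA, and 6 and 9 for CXCL14 siRNA. The shares higher, 15%, 20% and 30%, stood beside 11.2%, 22.3% and 27.4% of all tested genes, and the shares lower were 5%, 25% and 45%, beside 9.14%, 22.5% and 28.4%. EDF1, which marks collided ribosomes, rose with ATF3 and APOE siRNA (0.30 ± 0.060 and 0.34 ± 0.060). NEMF, which tags stalled chains, changed by -1.28 ± 0.091 and the stress kinase gene MAP3K20 by -0.84 ± 0.074 with CXCL14 siRNA. TRIP4, part of the complex that splits collided ribosomes, changed by -0.76 ± 0.11 with APOE siRNA, and G3BP1, of stress granules, by -0.28 ± 0.061 with ATF3 siRNA.

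**Figure D5:**
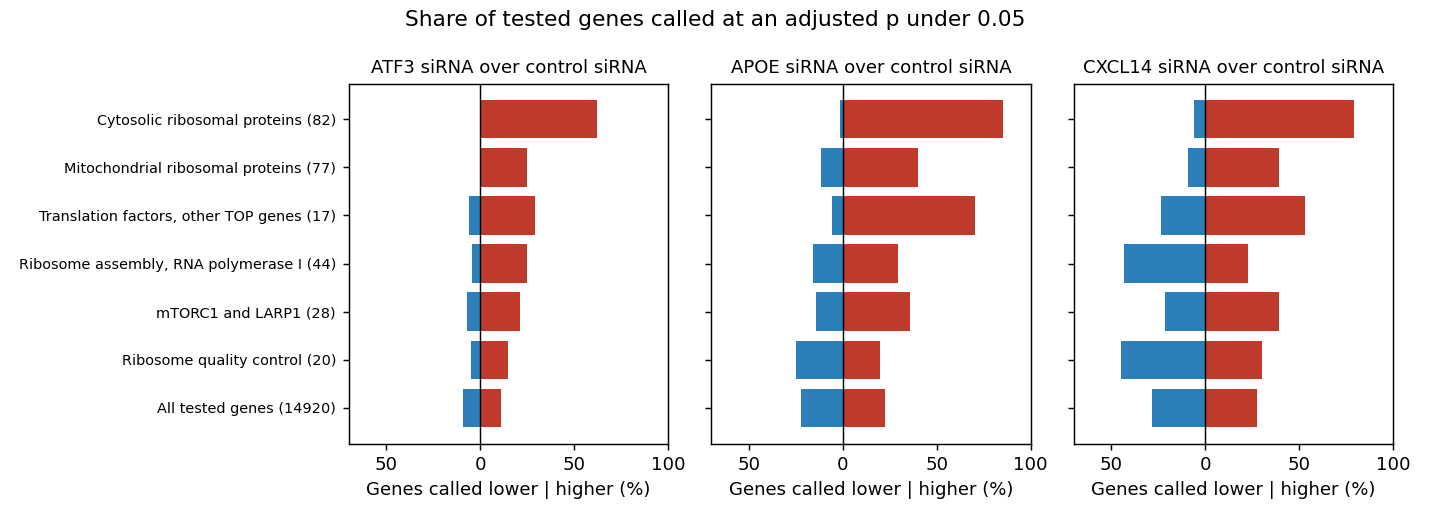
Share of the tested genes of each list (number in brackets) called higher (right of 0) or lower (left of 0) over control siRNA, with ATF3, APOE and CXCL14 siRNA. Cytosolic ribosomal proteins have 51, 70 and 65 of 82 called higher; genes of ribosome assembly have 19 of 44 called lower with CXCL14 siRNA, where 28.4% of all tested genes were.

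Gene length, abundance and pseudogenes were set beside the members. Other genes with short coding transcripts (under 1000 bases, 2934 tested) had 515 higher and 215 lower with ATF3 siRNA, for APOE siRNA 843 and 628, and for CXCL14 siRNA 977 and 803, with medians of 0.062, 0.054 and 0.065. As shares these were 17.6% and 7.33%, 28.7% and 21.4%, and 33.3% and 27.4%. Over all tested genes the shares were 11.2% and 9.14%, 22.3% and 22.5%, and 27.4% and 28.4%. The 1422 most abundant other genes had medians of 0.038, 0.021 and -0.0045. Annotated ribosomal protein pseudogenes took 0.208 ± 0.0136, 0.227 ± 0.00171 and 0.227 ± 0.00542% of counts with ATF3, APOE and CXCL14 siRNA, against 0.184 ± 0.00213% with control siRNA (SD, n = 3 each). The 74 pseudogenes that passed the filter had medians of 0.20, 0.33 and 0.31, and their reads may come from the parent genes. Scaling factors computed without the ribosomal protein genes and their pseudogenes left 51, 70 and 65 members called higher. Of all 14920 genes, 1698, 3360 and 4118 were higher with these factors.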

How the data were processed

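Gene counts and FPKM values were used as deposited by the authors. Per the submitters' processing notes, the tools were HISAT2 2.0.5 and featureCounts 1.5.0-p3 and the build was hg38; neither the annotation nor the strand setting is stated. Each of the 58735 gene IDs matched GENCODE 29, which gave transcript lengths and exon overlap. The deposited counts were raw, and the deposited FPKM values were used for levels between genes and in an alternative test.

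Tests used R 4.3.3 and edgeR 4.0.16: filterByExpr with a minimum count of 10, TMM scaling, 1 term per group over 12 libraries, the quasi-likelihood test, and Benjamini-Hochberg adjustment over 14920 genes with a threshold of 0.05. The SE was taken as the absolute log2 fold change over the root of F. limma 3.58.1 and DESeq2 1.42.0 gave alternatives, beside other scalings, filters, the pair of groups alone, a replicate block and each library left out. The fit was tested on simulated data with 200 changed genes. Total counts were 16225691 to 22246755 per library, and replicates differed by 4.53 to 17.2 times the counting variance. Each library was counted as a sample of its own, although such scatter does not show that libraries came from separate cultures.

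The members, the gene lists and the marker lists were chosen with earlier results of these data known. Genes named were, per comparison with the control, the 4 largest called changes in each direction and the 3 smallest adjusted p; per direct comparison, the 2 largest called differences in each direction; the 5 highest and 5 lowest members by FPKM; paralog pairs; 2 genes per list and comparison; up to 4 members called alike throughout; and a list of members by role; some of the genes these rules pick are not reported here. RPS7, RPL8, RPL27A, RPL14, RPS13, RPL38 and RPS12 were followed through further comparisons after their values were seen. Samples were grouped by their labels, and all columns were mapped.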

Additional observations from a re-analysis of the deposited data

How the results depend on the processing

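Across the alternatives for named genes, 2371 values kept direction and call, 70 lost the call, 21 gained it and 18 changed sign. Members called higher over control siRNA with single libraries left out numbered 35 to 63 for ATF3 siRNA, 64 to 70 for APOE siRNA and 59 to 64 for CXCL14 siRNA, and those called lower 0 for ATF3 siRNA, 0 to 1 for APOE siRNA and 4 to 5 for CXCL14 siRNA. Over all genes those higher numbered 1057 to 1523, 2789 to 3034 and 3592 to 3878 in these settings, and those lower 859 to 1258, 2924 to 3175 and 3927 to 4033. Library sizes alone gave 2 lower for APOE siRNA, 52 lower for ATF3 over CXCL14 siRNA, and 10 higher and 23 lower for APOE over CXCL14 siRNA. Of all 14920 genes, that scaling gave 3909 lower for APOE siRNA and 4897 lower for ATF3 over CXCL14 siRNA. For APOE over CXCL14 siRNA it gave 3379 higher and 5148 lower. With single libraries left out, ATF3 over APOE siRNA had 5 to 8 higher and 20 to 35 lower, ATF3 over CXCL14 siRNA 6 to 12 higher and 13 to 35 lower, and APOE over CXCL14 siRNA 14 to 21 higher and 6 to 7 lower. Over all genes those higher numbered 2587 to 2926, 3854 to 4104 and 3944 to 4050 there, and those lower 2225 to 2630, 3342 to 3624 and 3594 to 3724. With pseudogenes included the share of counts was 5.53% for APOE, 5.82% for CXCL14 and 4.39% for control siRNA. Values that changed sign were near 0 and not called: RPL22L1 with APOE siRNA was -0.039 with library sizes alone, -0.0031 with no filter and -0.093 to 0.11 with single libraries left out; RPL7L1 with APOE siRNA was 0.0018 with TMM factors from other genes, 0.00028 with the stricter filter on low counts and -0.0297 to 0.034 with single libraries left out. RPL38 with CXCL14 siRNA was 0.021 with library sizes alone and -0.10 to 0.031 with single libraries left out. The other ranges with single libraries left out were -0.012 to 0.19 for RPL26 with ATF3 siRNA, -0.084 to 0.022 for RPL39L with APOE siRNA, -0.026 to 0.098 for RPL7 with CXCL14 siRNA and -0.0503 to 0.021 for RPL8 with APOE siRNA. The cause of these moves was not tested. Over all tested genes, ATF3 siRNA had 1678 higher and 1363 lower, against 1057 and 859 without control replicate 1. With a replicate block, members called higher and lower were 57 and 0 for ATF3, 71 and 1 for APOE and 68 and 5 for CXCL14 siRNA, and 5 and 36, 9 and 34, and 23 and 9 in the direct comparisons in the order above. Over all 14920 genes ATF3 siRNA then had 2198 higher and 1940 lower, APOE siRNA 3738 and 3698, and CXCL14 siRNA 4439 and 4531. The direct comparisons then had 3400 and 3218, 4559 and 4153, and 4649 and 4300 over all genes. Deviations of same-numbered libraries from their group means correlated above 0.1 in 12 of 18 pairs: 5 of 6 for replicate 1, 1 of 6 for replicate 2 and 6 of 6 for replicate 3 (0.21 to 0.371), and in all 3 for APOE with CXCL14 siRNA. A library correlated best with its own number in 26 of 36 cases. The labels do not say what a number marks, and a shared batch or day was not tested. With all libraries kept, calls of genes named here were lost in 6 settings for RPL7, 3 for RPSA, 4 for RPS27 and 2 for RPL5 with ATF3 siRNA, in 5 for RPS27L and 1 for RPS27A with APOE siRNA, and in 1 each for RPL5 and RPS12 and 2 for CXCL14 with CXCL14 siRNA (adjusted p 0.0518 to 0.317); with no filter RPL22L1 and RPL39 were called with ATF3 siRNA (0.0224 and 0.0178).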
